A study of Drosophila melanogaster with 18 samples.

Results

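This section follows 35 genes of lipid storage, synthesis and oxidation through RNA of Drosophila melanogaster heads. The genes were listed by symbol in 6 steps, from the fat droplet to the mitochondrion, and were found by FlyBase identifier, symbol or synonym. All 35 were among the 10884 genes of the male table and 33 were among the 10480 genes of the female table, which had no row for mag or Fatp1. The groups, of 3 libraries each, were females homozygous for the foxo allele c431 at day 3, wild-type females of line 5905 (w1118) at day 3, and wild-type males of that line at days 3, 15, 30 and 45 after eclosion. The transcription factor FOXO, which is the product of foxo, is held in the cytoplasm when insulin signals. All flies were kept at 25 °C, and polyadenylated RNA came from whole heads, so fat body, muscle, blood cells, neurons and glia share each library. The lesion of c431 and the number of heads per library were not given in the sources used here, nor whether replicates were separate cultures, so a p-value reflects only the spread among these libraries, which may be technical.

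Insects store fat as triglyceride in droplets, mostly in the fat body, a tissue that also surrounds the brain inside the head capsule. Perilipins coat the droplet and gate its lipases, and the freed fatty acids enter mitochondria on carnitine, where beta-oxidation shortens them to acetyl-CoA. Lipid moves between organs on lipophorin, a lipoprotein of the hemolymph. In flies FOXO is known to raise the lipases bmm and Lip4 in fasting.

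Male libraries held 2999956 to 4102364 reads recovered from the deposited normalized values, and the first principal component, with 44.9% of the variance, ordered them by age. The normalized count used below is a read count scaled by the authors for library depth. Day 45 replicate 3 and day 3 replicate 1 stood furthest from their own groups, and calls of members that were lost without either are named below. Photoreceptor markers summed to 110383 to 254567 normalized counts in the male heads, and testis and accessory gland markers to at most 46.6. In the authors' deposited table foxo mRNA was higher in the mutants (by 0.33 log2, SE 0.09, adjusted p = 0.00465), which does not check an allele of unknown lesion.

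Levels per length spanned a wide range. Averaged over the 12 male libraries and divided by exon length, the desaturase Desat1 had 3522 normalized counts per kb, the lipophorin precursor apolpp 1707 and the fatty acid synthase FASN1 961. They were followed by the acyl-CoA synthetase Acsl at 598, the perilipin Lsd-1 at 566, the thiolase yip2 at 505 and the dehydrogenase scu at 472 per kb. At the low end stood Dgat2, an acyltransferase of the last step of triglyceride synthesis, at 7.3 per kb, the gut lipase mag at 1.74 and FASN2, a synthase known from oenocytes, at 1.52. FASN1 and FASN2 are adjacent paralogs, as are the lipophorin receptors LpR1 and LpR2, so how reads were split within each pair is uncertain.

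**Figure D1:**
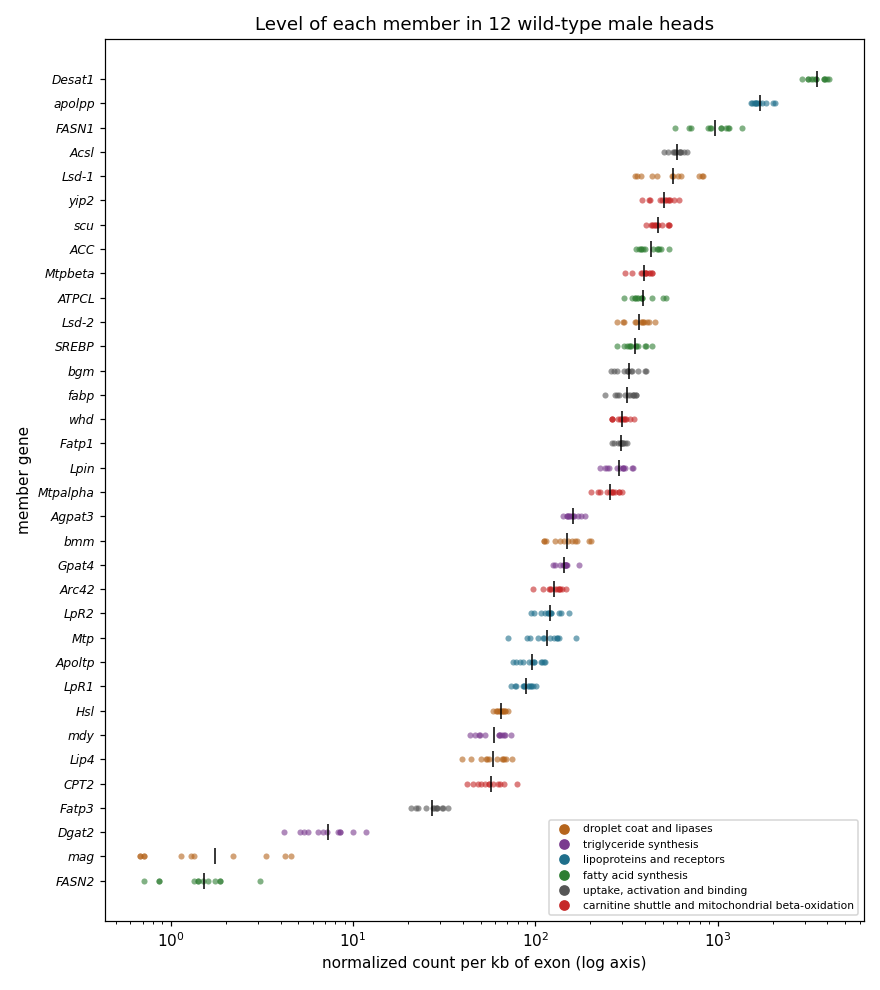
Normalized count per kb of exon (log axis) of 34 members, 1 row per gene, with 12 points for the male libraries and a bar at their mean, coloured by step. Desat1 leads at 3522 per kb and FASN2 is lowest at 1.52. Mcad is not drawn because its reads are uncertain, and the library in which mag was 0 has no point.

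The medium-chain dehydrogenase Mcad could not be measured in males. It had 0 to 5.97 normalized counts per male library, against a mean of 1256 in the authors' deposited table for females. Of its exon bases, 92.6% overlap CG7457 on the opposite strand, and no label says that the kit marks strand. The binding protein gene fabp shares 72.1% of its exon bases with sea on the same strand, so its values are uncertain too. With mag, Mcad was too low to test, which left 33 members tested by age.

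The comparison of day 45 with day 3 asked how old male heads differ from young ones. Of the 33 tested members 14 rose and 1 fell at an adjusted p under 0.05 from limma, a linear model fitted to all 8921 genes that passed a filter on low values. Among all genes tested 17.4% rose and 18.3% fell, 35.7% in either direction, against 45.5% of members in either direction. The members were chosen with earlier results of these data known, so these shares describe the list and are not a test of it. The median log2 change was 0.21 over the tested members and 0.00 over all genes, and 26 of the 33 members were above 0. By step, 4 of 5 droplet and lipase genes rose, 5 of 7 of the carnitine shuttle and beta-oxidation, 3 of 6 of fatty acid synthesis and 2 of 5 of lipoproteins and receptors. None of 5 triglyceride synthesis genes passed in either direction, and 1 of 5 uptake and binding genes fell. In bulk heads fewer cells of a type and less RNA per cell cannot be told apart.

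Cell markers also moved between these ages. Of the head fat body markers, 1 of 4 tested rose, the transferrin Tsf1 (log2 change 1.24, SE 0.17, limma adjusted p = 2.05e-05), while Fbp1 was at 0 in 4 of 12 libraries and Lsp2 in 1. The 5 fat body markers summed to 19271 to 27540 normalized counts at day 45 and 7297 to 11407 at day 3, and nearly all of each sum was Tsf1, with a mean of 22853 at day 45 and 9779 at day 3. The other tested markers did not pass, with log2 changes of -1.52 for Lsp2, -0.05 for fit and 0.04 for to, and the median over the list was -0.0048. Of 6 neuron markers 5 fell, with sums of 10647 to 11231 at day 45 and 15471 to 19086 at day 3. Muscle markers fell for 4 of 5, with sums of 5731 to 6159 at day 45 and 9366 to 14569 at day 3. Among hemocyte markers 2 rose and 5 fell of 8, and 5 of 8 photoreceptor markers fell. Of 7 glia markers 3 rose and 3 fell, and of 4 gut markers 1 rose. Of 4 oenocyte markers 1 fell and none rose, with all 4 log2 changes below 0. Among them Cyp4g1 was very uneven at day 45, with 222, 148 and 4.34 normalized counts in replicates 1, 2 and 3. The part of these shifts in the changes of lipid genes was not tested.

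**Figure D2:**
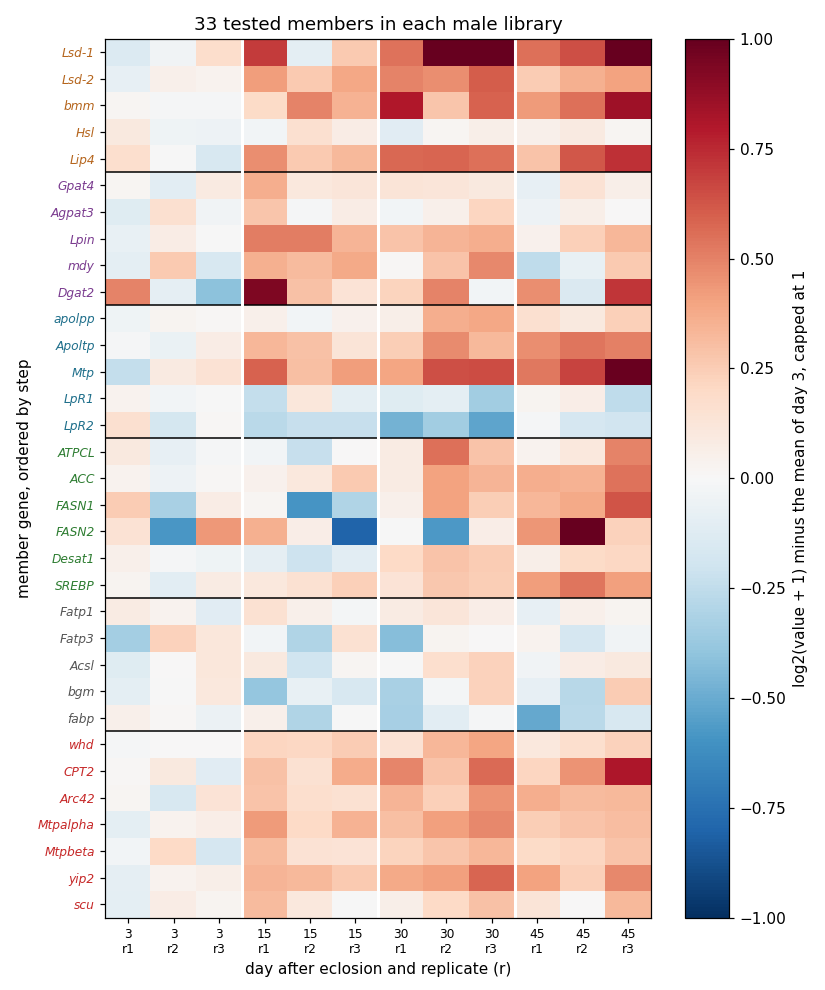
Log2(value + 1) minus its day 3 mean for 33 tested members (rows, by step) in 12 male libraries (columns, by day and replicate r); red is higher and blue lower, capped at 1. Droplet and beta-oxidation rows are mostly red after day 3, and fabp is the member that fell by day 45.

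The mRNA of both perilipins was higher at day 45 than at day 3. Lsd-1, which recruits lipases to the droplet (3R, 23763857 to 23766662 in dm6), had 691, 740.4 and 859 normalized counts at day 3, 1235, 709 and 912 at day 15, 1106, 1538 and 1597 at day 30 and 1117, 1187 and 1627 at day 45. Every library of days 30 and 45 lay above every library of day 3, while day 15 overlapped day 3. Lsd-1 was 1.70-fold higher at day 45 than at day 3 (log2 change 0.76, SE 0.18, limma adjusted p = 0.00269). Its libraries were also the most scattered among members with a mean of at least 50, with a mean coefficient of variation within ages of 19.8%, against a median of 7.52% for those members.

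Lsd-2, the perilipin that shields stored fat from lipases (X, 15069127 to 15076220), moved early. Its libraries held 1287, 1409 and 1392 normalized counts at day 3, 1819, 1635 and 1778 at day 15, 1922, 1878 and 2077 at day 30 and 1621, 1746 and 1800.1 at day 45. No library of a later age overlapped day 3, and the mean was highest at day 30, at 1959 ± 105 (SD, n = 3). Day 15 was 1.28-fold above day 3 (limma log2 change 0.36, SE 0.07, adjusted p = 0.00431) and day 45 was 1.26-fold above it (0.34, SE 0.07, adjusted p = 0.00165).

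The lipases of the list did not all move. The triglyceride lipase bmm, the fly form of ATGL (3L, 14776496 to 14786412), had 277, 271 and 271 normalized counts at day 3, 311, 386 and 348 at day 15, 477, 332 and 412 at day 30 and 367, 401 and 492 at day 45. All later libraries were above the close values of day 3, and the rise at day 45 was 1.52-fold (log2 change 0.61, SE 0.12, limma adjusted p = 0.00105). At day 15 it missed the threshold (0.35, adjusted p = 0.0739).

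Lip4, a lipase of the acid lipase family (2L, 10527572 to 10531778), had 118, 105 and 94.3 normalized counts at day 3, 146, 127 and 132 at day 15, 157, 158 and 155 at day 30 and 129, 163 and 176 at day 45. Its day 3 libraries were below all others, and day 45 was 1.46-fold higher (log2 change 0.55, SE 0.12, limma adjusted p = 0.00176). Hsl, the hormone-sensitive lipase, stayed between 226 and 273 in all 12 libraries, with a log2 change of 0.05 (SE 0.08, limma adjusted p = 0.666). The gut lipase mag had 0 to 6.7 and was not tested.

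**Figure D3:**
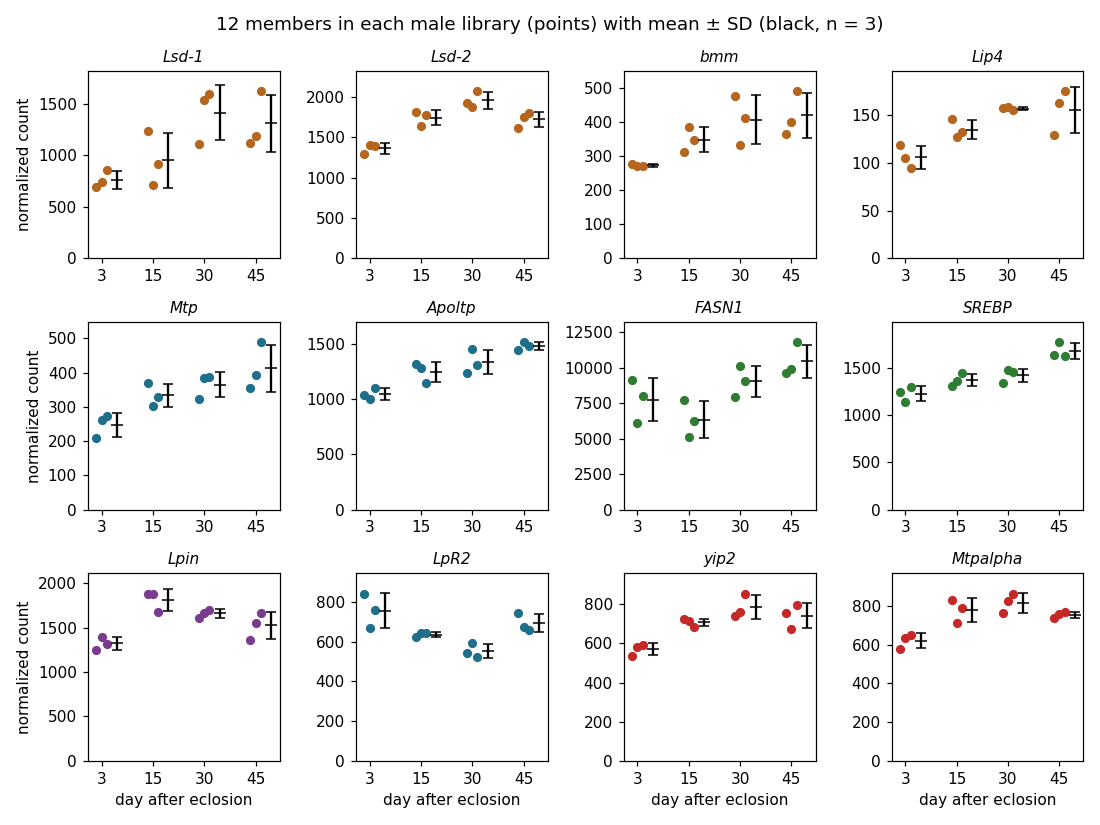
Normalized count (vertical axis, from 0) by day after eclosion for 12 members: points are single male libraries and black bars the mean ± SD (n = 3). Lsd-1, bmm, Mtp and SREBP are above their day 3 libraries at day 45, Lpin has its highest mean at day 15, and LpR2 its lowest at day 30.

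In the step from fatty acid to triglyceride, Lpin alone passed, and at day 15. Lpin encodes lipin, which makes diacylglycerol from phosphatidic acid (2R, 8136986 to 8156654). It had 1251, 1393 and 1319.6 normalized counts at day 3, 1883, 1878 and 1670.2 at day 15, 1609, 1669 and 1702 at day 30 and 1361, 1554 and 1659 at day 45. Day 15 and day 30 lay wholly above day 3, whereas day 45 overlapped it and lay below every day 15 library. The rise at day 15 was 1.37-fold (log2 change 0.45, SE 0.08, limma adjusted p = 0.00151), the change at day 45 against day 3 was 0.20 (adjusted p = 0.0589) and that of day 45 against day 15 was -0.25 (adjusted p = 0.0654).

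The 4 other genes of triglyceride synthesis passed no test between ages. Agpat3, which adds the acyl chain before lipin acts, had 339.5, 413 and 360.0 normalized counts at day 3, 449, 368 and 389 at day 15, 362, 382 and 429 at day 30 and 358, 385 and 371 at day 45, with all ages overlapping. For mdy, the acyltransferase DGAT1, day 15 libraries of 176 to 184 lay above those of days 3 and 45, at 126 to 169 and 118 to 169, without passing (day 15 against day 3, log2 change 0.35, SE 0.14, limma adjusted p = 0.113). Gpat4, the acyltransferase of the opening step, ranged from 285 to 396 over all libraries, and Dgat2 from 5.42 to 15.3.

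Of the lipoprotein genes Mtp and Apoltp rose, while the lipoprotein and its receptors passed no test at day 45. Mtp, the microsomal protein that loads lipid onto lipoproteins (2L, 20919094 to 20922876), had 208, 262 and 272 normalized counts at day 3, 369.5, 303 and 328 at day 15, 322, 384 and 386 at day 30 and 354, 393 and 489 at day 45. Day 3 lay below every later library. Mtp was 1.66-fold higher at day 45 than at day 3 (limma log2 change 0.73, SE 0.13, adjusted p = 0.000229) and 1.35-fold higher at day 15 (0.44, SE 0.13, adjusted p = 0.0301).

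Apoltp, which encodes the lipid transfer particle that moves lipid between lipophorin and cells (2L, 9634179 to 9656026), had 1037, 999 and 1101 normalized counts at day 3, 1314, 1278 and 1145 at day 15, 1236, 1450.0 and 1311 at day 30 and 1439, 1513 and 1483 at day 45. Later ages lay above day 3 throughout. At day 45 it was 1.41-fold higher (limma log2 change 0.50, SE 0.08, adjusted p = 8.26e-05), at day 15 1.19-fold higher (0.25, SE 0.08, adjusted p = 0.0388).

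The lipophorin gene apolpp (4, 1060969 to 1077273) had 17884, 18859.7 and 18647 normalized counts at day 3, 19132, 18135 and 19016 at day 15, 19235, 23723 and 24192 at day 30 and 20678, 19734 and 21727 at day 45. Its day 45 libraries lay above those of day 3 by a small margin, with a log2 change of 0.17 (SE 0.10, limma adjusted p = 0.213).

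LpR2, a lipophorin receptor, had 843, 667 and 760.1 normalized counts at day 3, 624, 642 and 643 at day 15, 542, 593 and 522 at day 30 and 746, 672 and 661 at day 45. Its lowest values were at day 30, and days 3 and 45 overlapped. It passed the test for any difference between the 4 ages (limma F test, adjusted p = 0.00347) but neither day 45 nor day 15 against day 3 (log2 changes -0.12 and -0.24). LpR1 ranged from 485 to 666 and passed no test.

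In fatty acid synthesis 3 of 6 genes were called higher at day 45 than at day 15, against 4.32% of all genes. FASN1 kept this call in all 21 alternative settings, while Desat1 lost it in 6 and SREBP in 3. The synthase FASN1 (2L, 3056598 to 3068177) had 9119.6, 6103 and 8037 normalized counts at day 3, 7748, 5088 and 6219 at day 15, 7929, 10129 and 9084 at day 30 and 9647, 9936 and 11806 at day 45. Day 45 lay above days 3 and 15, which overlapped. It was 1.66-fold higher at day 45 than at day 15 (limma log2 change 0.74, SE 0.15, adjusted p = 0.00549) and 1.36-fold higher than at day 3 (0.45, SE 0.15, adjusted p = 0.029).

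SREBP encodes the membrane-bound factor that drives lipid synthesis genes (3L, 19793935 to 19798979). Its libraries held 1246, 1139 and 1296 normalized counts at day 3, 1315, 1360.3 and 1447 at day 15, 1345, 1475 and 1454 at day 30 and 1635, 1774 and 1628 at day 45. Day 45 stood above all 9 younger libraries, 1.37-fold over day 3 (limma log2 change 0.45, SE 0.07, adjusted p = 0.000133) and 1.22-fold over day 15 (0.29, SE 0.07, adjusted p = 0.0202).

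ACC, the carboxylase that makes malonyl-CoA for chain growth (2R, 7974115 to 7991862), had 3428, 3224 and 3370.1 normalized counts at day 3, 3434, 3601 and 4005 at day 15, 3539.6, 4403 and 4235 at day 30 and 4301, 4259 and 4875 at day 45. Later libraries were all above day 3, and day 45 was 1.34-fold above it (log2 change 0.42, SE 0.09, limma adjusted p = 0.00157).

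Desat1, which puts a double bond into the chain (3R, 12439600 to 12447616), had 8629.9, 8251 and 8080.4 normalized counts at day 3, 7825, 7203 and 7748 at day 15, 9561, 10149 and 9935 at day 30 and 8655, 9495 and 9626 at day 45. Day 15 was lowest and day 30 highest, with no overlap between those ages. Day 45 was 1.22-fold above day 15 (limma log2 change 0.29, SE 0.08, adjusted p = 0.0299) and did not pass against day 3 (0.15, adjusted p = 0.139). ATPCL, which makes cytosolic acetyl-CoA from citrate, ranged from 1324 to 2266 and passed neither test against day 3, and FASN2 had 5.85 to 25.1.

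No gene of fatty acid uptake or activation passed a test between ages. Acsl had 2619.7, 2858 and 3077 normalized counts at day 3, 3040.4, 2484 and 2891 at day 15, 2831, 3204 and 3342 at day 30 and 2783, 2998 and 3041 at day 45, with overlap between all ages. The very long chain acyl-CoA synthetase bgm had 837, 893 and 964 at day 3, 686, 853 and 802 at day 15, 714, 884 and 1055 at day 30 and 847, 741 and 1068 at day 45, again overlapping. The transporters Fatp1 and Fatp3 ranged from 897 to 1080.0 and from 51.7 to 82.

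The fatty acid binding protein gene fabp (3R, 11559896 to 11567054) was the member that fell. It had 823, 799 and 760.1 normalized counts at day 3, 823, 645 and 794 at day 15, 631, 739 and 789 at day 30 and 558, 658 and 712 at day 45. Each day 45 library was below each day 3 library, though days 15 and 30 overlapped both. The log2 change at day 45 against day 3 was -0.31 (SE 0.11, limma adjusted p = 0.0298), and it passed no more without day 45 replicate 1 (-0.21, adjusted p = 0.152), without day 45 replicate 2 (-0.33, 0.0513), without day 3 replicate 1 (-0.29, 0.087) or without day 3 replicate 2 (-0.31, 0.0655).

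In the carnitine shuttle and beta-oxidation 5 of 7 tested genes rose at day 45 against day 3, beside 17.4% of all genes. All 7 had a log2 change above 0, from 0.15 to 0.49. The thiolase yip2, which releases acetyl-CoA at the end of each round (2L, 9915253 to 9917220), had 536, 583 and 594 normalized counts at day 3, 723, 714 and 686 at day 15, 741, 760.1 and 855 at day 30 and 756, 674 and 799 at day 45. Later ages lay above day 3 without overlap. Its changes were 0.38 at day 45 (1.30-fold, SE 0.08, limma adjusted p = 0.00152) and 0.31 at day 15 (SE 0.08, adjusted p = 0.0174).

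Mtpalpha and Mtpbeta encode the subunits of the trifunctional protein, which carries out the later reactions of each round on long chains. Mtpbeta is its thiolase. Mtpalpha (2L, 9573563 to 9576769) had 579, 635 and 649.5 normalized counts at day 3, 834, 712 and 789 at day 15, 763, 824 and 865 at day 30 and 737, 757 and 771 at day 45. Its day 3 libraries were the lowest, and the changes were 0.28 at day 45 (1.22-fold, SE 0.08, limma adjusted p = 0.009) and 0.32 at day 15 (adjusted p = 0.011).

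Mtpbeta had 542, 634 and 493 normalized counts at day 3, 690.4, 611 and 607 at day 15, 646, 671 and 697 at day 30 and 634, 642 and 674 at day 45. Its day 45 libraries reached down to the highest library of day 3. The log2 change was 0.23 (SE 0.09, limma adjusted p = 0.0488), and this call was lost in 15 of 21 alternative settings, with adjusted p up to 0.236 without day 3 replicate 3. Among those settings were the fits without day 3 replicate 1 and without day 45 replicate 3.

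Arc42, an acyl-CoA dehydrogenase, had 155, 137 and 168 normalized counts at day 3, 186, 172 and 169.6 at day 15, 194, 180.5 and 209 at day 30 and 197, 191 and 192 at day 45. Day 3 lay below all later libraries, with a log2 change of 0.34 at day 45 (SE 0.10, limma adjusted p = 0.0106) that missed the threshold without day 3 replicate 2 (0.26, adjusted p = 0.0551). CPT2, the inner carnitine acyltransferase, had 107, 114 and 98.7 at day 3, 131, 118 and 138 at day 15, 150.3, 130.4 and 158 at day 30 and 124, 146 and 187 at day 45. It rose 1.41-fold at day 45 (limma log2 change 0.49, SE 0.13, adjusted p = 0.00816), and the call rested on day 45 replicate 3 (0.33, adjusted p = 0.0525 without it).

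The outer carnitine acyltransferase whd, the fly's CPT1, is the entry point of the pathway (2R, 10469473 to 10478567). It had 831, 837 and 838 normalized counts at day 3, 967, 964 and 997 at day 15, 921, 1052 and 1099 at day 30 and 898, 939 and 979 at day 45. Day 3 was tight and below all others. Day 15 passed narrowly (limma log2 change 0.22, SE 0.07, adjusted p = 0.0499) and the call was lost in 13 of 21 alternatives, while day 45 did not pass (0.17, adjusted p = 0.0848). The dehydrogenase scu had 458, 516 and 499 at day 3, 610.2, 529 and 488 at day 15, 510.5, 563 and 602 at day 30 and 535, 493 and 616 at day 45, with overlap at each age.

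**Figure D4:**
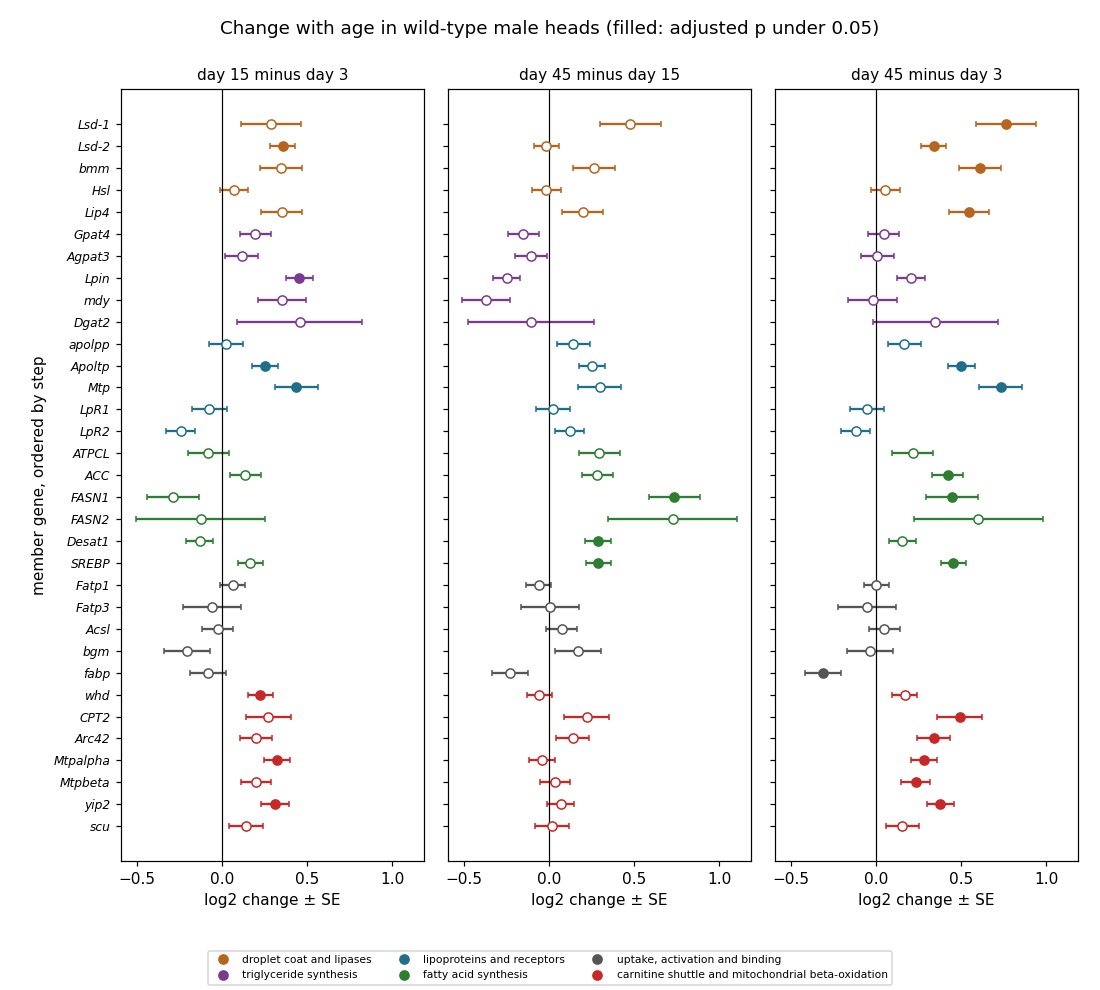
Log2 change ± SE (horizontal axis) of 33 tested members in male heads for day 15 minus day 3, day 45 minus day 15 and day 45 minus day 3, coloured by step; filled points passed an adjusted p under 0.05. Beta-oxidation has 3 filled points in the early contrast and none in the late, and fatty acid synthesis has none in the early and 3 in the late. Whether a step's early and late changes differ was not tested.

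When members changed was compared with day 15 as the dividing age. Between day 15 and day 3, 7 members rose (Lsd-2, Lpin, Apoltp, Mtp, whd, Mtpalpha and yip2) and none fell, 21.2% of 33, against 13.4% of all genes in either direction, 5.95% higher and 7.42% lower. Between day 45 and day 15, 3 members rose, all of fatty acid synthesis (FASN1, Desat1 and SREBP), and none fell, 9.09% of 33, against 8.5% of all genes in either direction, 4.32% higher and 4.18% lower. These contrasts share the day 15 libraries, and both contrasts against day 3 share its libraries, so early and late changes of a gene are not independent, and whether a step's early and late changes differ was not tested. Muscle markers summed to 4736 to 5535 normalized counts at day 15 and 9366 to 14569 at day 3, all 5 lower. Of 4 tested fat body markers 1 rose at day 15, to (log2 change 0.56, limma adjusted p = 0.0246), while Tsf1 at 0.43, Lsp2 at -1.50 and fit at -1.16 did not pass. Between day 45 and day 15, 7 of 8 photoreceptor markers fell, with sums of 110383 to 189750 at day 45 and 236663 to 254567 at day 15, and 2 of 6 neuron markers fell. Over the same span Tsf1 rose (0.81, limma adjusted p = 0.00507) and to fell (-0.52, adjusted p = 0.0471). The part of these markers in the early and late changes was not tested.

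Of the early calls, only 2 of 7, Lsd-2 and Lpin, were kept in all 21 alternatives read at an adjusted p under 0.05. Without day 3 replicate 1 or without day 15 replicate 1 just 2 members were called higher, and without day 15 replicate 2 there were 4. Without day 3 replicate 1 the log2 changes of Mtp, Mtpalpha, yip2, Apoltp and whd at day 15 lay between 0.22 and 0.31, with limma adjusted p of 0.056 to 0.152. Without day 15 replicate 1 they lay between 0.21 and 0.36, with adjusted p of 0.0686 to 0.165. Of the late calls FASN1 was kept in every alternative. Leaving out day 15 replicate 2 or day 45 replicate 2 left 1 late call, leaving out day 30 replicate 1 gave 5, and leaving out day 45 replicate 3 gave 2 lower. Without day 45 replicate 2 the late changes of Desat1 and SREBP were 0.27 and 0.25 (limma adjusted p = 0.113 and 0.101), and without day 15 replicate 2 they were 0.25 and 0.28 (adjusted p = 0.149 and 0.077). The late call of Desat1 was also lost without day 45 replicate 3.

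For the span from day 3 to day 45, 10 of the 15 calls were kept in all 21 alternatives. FASN1 was lost without day 45 replicate 3 (log2 change 0.36, limma adjusted p = 0.103) and without day 3 replicate 2 (0.28, adjusted p = 0.159). With DESeq2 on all libraries FASN1 (adjusted p = 0.086) and Arc42 (adjusted p = 0.0545) were lost as well. Libraries of day 45 and day 3 did not overlap for 16 members that were higher and 1 that was lower, shares to be read against 22.4% and 22.9% of all genes tested.

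Over the 4 ages 17 of 33 members differed by the limma F test, 51.5%, against 31.5% of all genes. All tested members but Dgat2 and FASN2 had a mean of at least 50, as did 6389 of the 8921 genes tested. Shares among genes of like level were not made, here or for the contrasts above. Among those 17 the highest mean fell at day 30 for 8 and at day 45 for 7, and the lowest at day 3 for 14. The same counts were not made over all genes, so whether these ages are particular to the members was not tested. LpR2 was the member among the 17 with its highest mean at day 3 and its lowest at day 30.

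Heads of foxo mutant females were set against those of wild-type females, both at day 3, to ask which genes differ between the genotypes in youth. Only the allele c431, of unstated lesion, was used, so whether a difference is due to foxo was not tested. All values below are the authors' own, given with their standard error, since the table holds no value per library. At an adjusted p under 0.05, the authors' deposited table had 3 members higher in the mutant and 9 lower, 36.4% of 33, against 12.8% of all 9860 genes for which it gives an adjusted p (6.26% higher, 6.51% lower). As with age, the list was chosen with earlier results of these data known, so these shares only describe it. The median log2 change in the authors' deposited table was -0.05 over members and 0.00 over all genes, with 21 members below 0. Calls were spread over the mitochondrial step with 4 of 8 lower, triglyceride synthesis with 2 of 5 lower, lipoproteins with 2 higher and 1 lower of 5, fatty acid synthesis with 1 higher and 1 lower of 6, and the droplet with 1 of 5 lower. None of 4 uptake genes passed.

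Other cell markers moved as well. By the authors' deposited table, 7 of 8 hemocyte markers, 3 of 6 muscle markers and 2 of 4 fat body markers were higher in the mutant, and 6 of 7 neuron markers were lower. The fat body markers fit at 1.34 and to at 1.02 passed, while Lsp2 at 0.27 and Tsf1 at -0.05 did not. Of 6 sex markers 3 were higher in the authors' deposited table, the yolk protein genes Yp1 at 0.81, Yp2 at 1.21 and Yp3 at 0.95. The others did not pass. The median log2 change there was 0.41 for hemocyte and -0.30 for neuron markers. Their part in the lipid changes was not tested, and marker sums per library are not given for females.

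All 8 genes of the carnitine shuttle and beta-oxidation were below 0 in the authors' deposited table, with a median log2 change of -0.23, and 4 passed. Of all 9860 genes with an adjusted p there, 4844 were below 0. Among 10 other genes of mitochondrial fatty acid oxidation, outside the list, 5 were below 0 and 5 above. Their median in the authors' deposited table was 0.02, with 1 called higher and 1 lower. The thiolase yip2 was 1.79-fold lower in the mutant in the authors' deposited table (log2 change -0.84, SE 0.09, adjusted p = 1.17e-16), the steepest change of any member. Next came scu, a 3-hydroxyacyl-CoA dehydrogenase, 1.60-fold lower in the authors' deposited table (-0.68, SE 0.09, adjusted p = 8.65e-12). The authors' deposited table gave smaller losses for Mtpalpha (-0.33, SE 0.09, adjusted p = 0.00262) and for whd (-0.23, SE 0.08, adjusted p = 0.044). CPT2 at -0.23, Mcad at -0.21, Mtpbeta at -0.18 and Arc42 at -0.06 missed the threshold in the authors' deposited table.

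In triglyceride synthesis 2 of 5 genes were lower in the mutant, against 6.51% of all genes. In the authors' deposited table mdy stood at -0.51 (SE 0.14, adjusted p = 0.00284) and Lpin at -0.37 (SE 0.08, adjusted p = 0.000127). Gpat4, Agpat3 and Dgat2 did not pass, at -0.01, -0.12 and 0.22 in the authors' deposited table.

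On the droplet, Lsd-2 was 1.35-fold lower in the authors' deposited table (log2 change -0.44, SE 0.09, adjusted p = 9.28e-05). The authors' deposited table gave Lsd-1 a log2 change of 0.43 with a wide error (SE 0.21, adjusted p = 0.189), which did not pass. The lipases bmm (-0.08, adjusted p = 0.838), Lip4 (0.20, adjusted p = 0.566) and Hsl (-0.01, adjusted p = 0.978) also missed the threshold of the authors' deposited table. The first pair are known FOXO targets in fasting flies.

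Lipoprotein genes moved in both directions. By the authors' deposited table, Mtp was 1.43-fold higher in the mutant (log2 change 0.51, SE 0.09, adjusted p = 2.88e-07) and Apoltp 1.26-fold higher (0.33, SE 0.08, adjusted p = 0.00041). The lipoprotein gene apolpp itself was lower by the authors' deposited table (-0.25, SE 0.09, adjusted p = 0.036). LpR1 at -0.08 and LpR2 at 0.08 missed the threshold in the authors' deposited table.

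In fatty acid synthesis the authors' deposited table had ATPCL 1.48-fold higher in the mutant (log2 change 0.56, SE 0.09, adjusted p = 4.47e-08), and SREBP lower (-0.20, SE 0.07, adjusted p = 0.0451). ACC at 0.16, FASN1 at 0.08, FASN2 at 0.30 and Desat1 at -0.0048 missed the threshold in the authors' deposited table. At a threshold of 0.01 the calls of apolpp, SREBP and whd were lost and 9 remained. The sign of the authors' fold was taken from the order of genotypes in the table's name, and of 402 genes whose absolute log2 change was over 0.5, wild-type males of day 3 were closer to the female wild-type level for 81.6%.

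**Figure D5:**
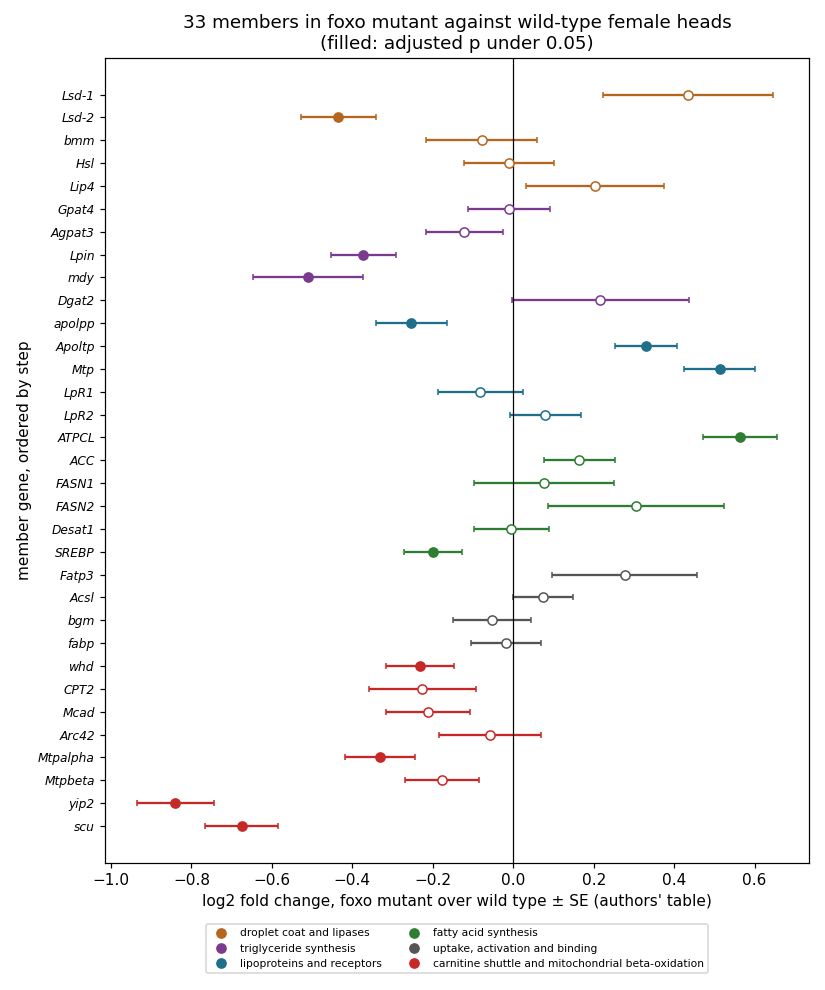
Log2 fold change of foxo mutant over wild-type female heads ± SE (horizontal axis, from the authors' deposited table) for 33 members, coloured by step; filled points had an adjusted p under 0.05. All 8 carnitine shuttle and beta-oxidation points are left of 0, with yip2 at -0.84 and scu at -0.68, and Mtp, Apoltp and ATPCL are the 3 filled points to the right.

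Set side by side, 6 members were called both with age (day 45 against day 3) and in the mutant, 40% of the 15 age calls and 50% of the 12 mutant calls in the authors' deposited table. These shares are near those of the members as a whole, of which 36.4% were called in the mutant and 45.5% with age. Mtp and Apoltp were higher in both comparisons. Lsd-2, SREBP, Mtpalpha and yip2 were higher in old males than in young ones and lower in foxo mutants than in wild-type females, by the authors' deposited table. Another 8 members rose with age without a call in the mutant, among them Lsd-1, bmm, Lip4, ACC and FASN1, and 5 were lower in the mutant without an age call (Lpin, mdy, apolpp, whd and scu). ATPCL was higher in the mutant and passed no test with age, and 11 members were called in neither. Age was measured in males and the mutant in females, from tables normalized separately, so whether the effects differ was not tested.

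A further 71 lipid genes outside the list gave context. Of these 60 were tested by age, and at day 45 against day 3 limma called 11 higher and 4 lower, 25.0%, against the 35.7% of all genes. By the authors' deposited table, the mutant had 6 of 61 such genes higher and 5 lower, 18%, against 12.8% of all genes. Among other mitochondrial oxidation genes 3 of 9 rose with age, and of other droplet and lipase genes 3 of 8, against 17.4% of all genes. In the first list the acyl-CoA dehydrogenase family gene CG9547 rose by 0.73 (log2). In the second the log2 changes were 0.81 for dob, a lipase paralog of bmm, and 0.55 for puml. The coactivator gene srl, the fly PGC-1, was 0.77 higher with age (SE 0.17, limma adjusted p = 0.00157) and 0.56 higher in the mutant (SE 0.15, adjusted p = 0.00322, authors' deposited table).

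Of 7 tested phospholipid synthesis genes 2 were lower and none higher at day 45 than at day 3, 28.6% lower, against 18.3% of all genes. CdsA, which activates phosphatidic acid, fell by 0.78 on the log2 scale, and Pis, which makes phosphatidylinositol from it, fell by 0.81, both by limma. These genes were also lower in the mutant in the authors' deposited table, at -0.31 (SE 0.07, adjusted p = 7.05e-05) and -0.29 (SE 0.08, adjusted p = 0.00415). Another gene of that list, eas, was higher there at 0.29 (SE 0.08, adjusted p = 0.00175). Over the 6 phospholipid genes in the authors' deposited table, 2 were lower and 1 higher, with a median of -0.0059. Elongation genes had 1 call each way of 9 with age, 11.1%, and peroxisome genes 2 higher of 16, 12.5%, against 17.4% higher and 18.3% lower among all genes. In the authors' deposited table the mutant's largest changes among peroxisome and other oxidation genes were Acox57D-d at 0.53 and CG4860 at 0.61. Each of these lists, of 16 and 10 genes, had 1 call higher and 1 lower there. The lower calls were Pex5 at -0.41 and colt at -0.28.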

How the data were processed

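Libraries of polyadenylated head RNA were made with Trizol and NEBNext Ultra, per the labels' protocols, and the submitters' processing notes name STAR, HTSeq, DESeq and the dm6 build. The authors deposited male values as normalized counts (a signal scaled by DESeq size factors). All were within 0.001 reads of whole reads. For females the authors deposited only a comparison: mean normalized counts (signal), log2 fold change, standard error, test statistic (score), p-value and adjusted p-value. Female depth is unknown. The female test planned per library therefore fell back on the authors' deposited adjusted p. Whether their folds were shrunken is not stated. No column belonged to another series.

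Log2(value + 1) of the 12 male libraries was fitted by limma 3.58.1 with an intensity trend in 1 model of 4 ages, over the 8921 genes that reached 10 in 3 or more libraries, and adjusted by Benjamini-Hochberg over all of them. Fold changes are on that log2(value + 1) scale and understate changes of low genes. On counts simulated for day 45 against day 3, over 8912 genes, 6% of changes were recovered at 1.25-fold, 62% at 1.5-fold, 84% at 2-fold and 96% at 4-fold. Each fold was given to 50 genes, whereas 35.7% of all genes were called in the data. An adjusted p under 0.05 was therefore harder to reach in the simulation, and these shares may understate recovery in the data. Coordinates and exon lengths came from Ensembl 115. Of the female names 8339 matched a symbol, 2031 a synonym and 110 neither or several.

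The members, steps, other lipid lists and markers were chosen with earlier results of these data known. Values per library are given for members called against day 3 and for the 2 of highest level per length in each step. All members called in the mutant are named. Other lipid genes are named if called with an absolute log2 change of at least 0.5, at most 4 of each list, with CdsA and Pis followed into the mutant. Also named are eas, Pex5 and colt, called in the mutant in the direction opposite to the genes named from their lists. Alternatives left out each library, added the replicate number, rescaled by TMM, changed filter, pseudocount, threshold or libraries, or tested recovered reads with edgeR 4.0.16 and DESeq2 1.42.0. Other tools were R 4.3.3, Python 3.11.15, numpy 2.4.6, pandas 2.3.3 and matplotlib 3.10.9. No promoter or protein sequence was used here.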

Additional observations from a re-analysis of the deposited data

How the results depend on the processing

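Under another model, scaling, filter or pseudocount with all libraries kept, no count of members called left the range of 1.5 times the reported one, and no call changed direction. The edgeR test on recovered reads gave 13 higher and 1 lower for day 45 against day 3, 6 and 0 for day 15 against day 3, 3 and 0 for day 45 against day 15, and 18 over the 4 ages. DESeq2 gave 11 and 1, 5 and 0, 4 and 0, and 17. A change of threshold, an alternative chosen after seeing the data, did move counts. At an adjusted p under 0.01 there were 11 higher and 0 lower for day 45 against day 3, 2 higher for day 15 against day 3, 1 higher for day 45 against day 15 and 14 over the 4 ages. At 0.1 there were 16 and 1, 9 and 1, 5 and 1, and 19.

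Leaving out each library in turn gave 11 to 14 members higher and 0 to 1 lower for day 45 against day 3, 2 to 9 higher and 0 to 1 lower for day 15 against day 3, 1 to 5 higher and 0 to 2 lower for day 45 against day 15, and 14 to 20 over the 4 ages.

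Same-numbered libraries of different ages did not consistently deviate together: their correlations were -0.255 to 0.154, with 2 of 18 pairs over 0.1. Pairs with different replicate numbers ran from -0.183 to 0.303, the highest for day 15 replicate 1 with day 45 replicate 3. Whether libraries of different ages share a batch was not tested. With the number as a replicate block, the counts were 13 higher and 1 lower for day 45 against day 3, 5 and 0 for day 15 against day 3, 2 and 0 for day 45 against day 15, and 17 over the 4 ages. No paired fit of the mutant could be made because the female table has no values per library, so alternatives that need such values were not run for it. A member that did not pass may still differ. The simulation does not give the share missed in the data, since far fewer genes were changed in it.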
